A study of Mus musculus with 12 samples.

Results

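Expression of 10 genes that are commonly read as targets of the transcriptional co-activator YAP or of serum response factor (SRF) was followed in mouse embryonic stem cells (mESCs). They were taken by gene name from a table of 54555 genes, and each name matched 1 row. The genes are Ctgf, Cyr61, Ankrd1 and Amotl2 on the YAP side, and Acta1, Acta2, Actg2, Tagln, Cnn1 and Myl9 on the SRF side. All 12 libraries came from R1, an established mouse embryonic stem cell line grown on gelatin with leukemia inhibitory factor (LIF). They fall into 4 groups of 3. The mESC_control cells were kept undifferentiated. The mESC_OGTi cells were given 25 µM Ac45SGlcNAc for 48 h, a compound that blocks O-GlcNAc transferase (OGT). OGT attaches the sugar O-GlcNAc to proteins inside the cell. The RA_control cells had a vehicle (DMSO) pre-treatment and then 48 h of 1 µM retinoic acid (RA) in LIF-free medium. The RA_OGTi cells had the inhibitor as pre-treatment (25 µM, 48 h) and then the same RA step. The sources used here do not say whether the inhibitor stayed in the medium in the RA step. They do not give the total culture time of each group either. Because RA_OGTi cells had the 48 h RA step after pre-treatment, RA and time since the inhibitor was added cannot be told apart. This holds wherever the inhibitor's effects in mESCs and in RA-treated cells are compared. RA and loss of LIF came together, so their effects cannot be told apart, and "RA" below means both. What the replicate numbers stand for is not given, so p-values here reflect library-to-library spread, possibly of technical origin.

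YAP and its paralogue TAZ are held in the cytoplasm by the kinases of the Hippo pathway. When released they enter the nucleus and bind TEAD factors, which sit on DNA at elements built around GGAATG. SRF binds the CArG box, and its cofactors of the MRTF family (Mkl1 and Mkl2 in the gene table) are kept inactive by free actin monomers, so that actin polymerisation frees them to switch on actin and actin-binding genes. In stem cells both branches are best known as readouts of cell shape, spreading and tension.

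Promoter windows of 250 bases before to 50 bases after the transcription start were taken from RefSeq on GRCm38.p6, and 7 of the 10 genes matched, all but Ctgf, Actg2 and Tagln. A CArG box was counted only in its strict form, with nothing but A or T between CC and GG, as in CCAAATATGG. It was found in 2 of the 7 and in 1.63% of all 32851 windows of this length. Looser forms were not counted, among them CCCTATATGG and CCTTGTTTGG upstream of Acta2. GGAATG, on either strand, was found in 5 of the 7 and in 14.7% of all windows. No match of one motif overlapped a match of the other. The 250 bases upstream of 4 genes are printed 5′ to 3′ along the gene's own strand, to show each of the 3 motif patterns seen: GGAATG alone (Cyr61 and Amotl2), both motifs (Acta1) and a CArG box alone (Myl9). Capitals mark the motif matches.
Cyr61: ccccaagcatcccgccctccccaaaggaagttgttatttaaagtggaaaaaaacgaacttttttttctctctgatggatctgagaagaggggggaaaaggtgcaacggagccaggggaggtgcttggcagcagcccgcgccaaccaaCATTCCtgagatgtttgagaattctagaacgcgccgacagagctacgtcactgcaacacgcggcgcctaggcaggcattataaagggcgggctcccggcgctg
Amotl2: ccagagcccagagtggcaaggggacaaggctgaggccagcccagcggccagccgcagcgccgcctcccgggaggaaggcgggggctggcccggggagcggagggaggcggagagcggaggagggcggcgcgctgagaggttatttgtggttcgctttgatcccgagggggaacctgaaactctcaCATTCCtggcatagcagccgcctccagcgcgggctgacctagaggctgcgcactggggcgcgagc
Acta1: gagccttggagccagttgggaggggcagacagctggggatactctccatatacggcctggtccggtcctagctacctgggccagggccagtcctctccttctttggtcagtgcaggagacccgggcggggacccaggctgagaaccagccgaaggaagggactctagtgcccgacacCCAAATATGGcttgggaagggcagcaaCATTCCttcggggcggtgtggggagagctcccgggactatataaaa
Myl9: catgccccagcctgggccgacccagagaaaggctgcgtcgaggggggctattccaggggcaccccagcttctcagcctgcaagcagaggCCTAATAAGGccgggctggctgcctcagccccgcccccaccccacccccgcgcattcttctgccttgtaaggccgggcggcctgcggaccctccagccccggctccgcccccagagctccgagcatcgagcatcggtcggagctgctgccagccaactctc
The Cyr61 stretch, listed by RefSeq as Ccn1, is chr3:145649986-145650235 on the minus strand, with GGAATG on the opposite strand (read as CATTCC) at -103 to -98 from the start. The Amotl2 stretch is chr9:102717554-102717803 on the plus strand, with the same reverse match at -65 to -60. Acta1 holds both motifs in chr8:123894776-123895025 on the minus strand. Its CArG box is at -73 to -64 and its reverse GGAATG match is at -46 to -41. The Myl9 stretch is chr2:156775214-156775463 on the plus strand and holds a CArG box at -161 to -152. Ankrd1 had GGAATG at -210 to -205 and at -123 to -118, Acta2 had it at -146 to -141, and Cnn1 held neither motif in its window. These matches are letters only, and no binding was measured here.

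**Figure D1:**
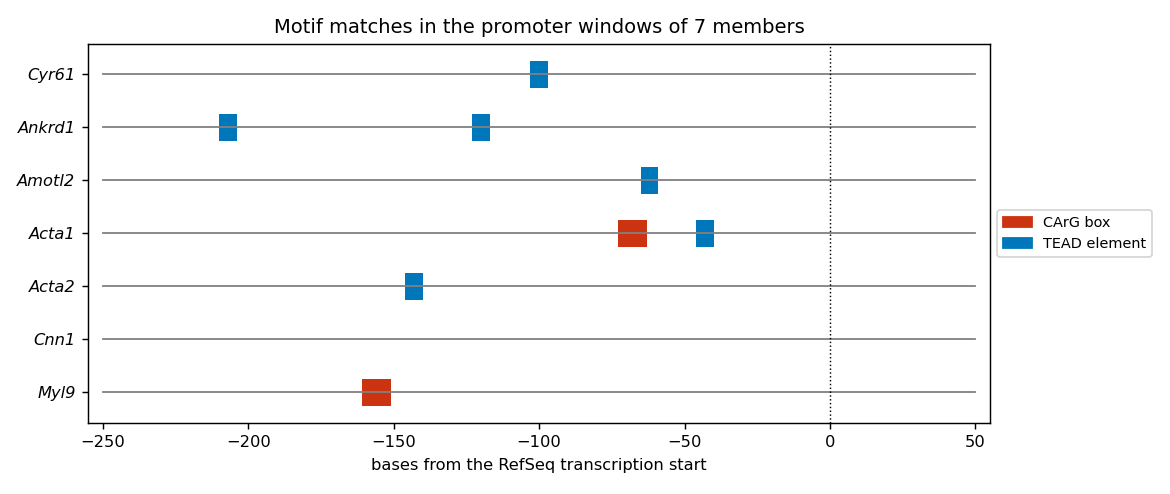
Positions of motif matches in the promoter windows of 7 of the genes, in bases from the RefSeq transcription start (dotted line). Red boxes are CArG boxes in the strict form and blue boxes are matches to the TEAD element GGAATG on either strand. By these matches Acta1 is the only gene with both, and Cnn1 has neither. Looser CArG forms, as upstream of Acta2, are not drawn.

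The libraries held 15553627 to 17833464 fragments assigned to genes. Levels are in FPKM as deposited, a level scaled to gene length and to a library total that is not depth alone, so genes can be compared per length. A gene was tested where it reached 1 FPKM in at least 3 libraries, which 14866 genes did, and called at a Benjamini-Hochberg adjusted p under 0.05 from limma over all of them. Log2 changes are of log2(FPKM + 1), which understates changes of low genes. Of the 10 genes, 8 passed and Actg2 and Tagln did not. Ankrd1, Acta1 and Acta2 reached 1 FPKM in RA-treated libraries only, so for these 3 a rise with RA was needed to be tested at all. Ogt checked the treatment, at 18.1 ± 1.92 FPKM in mESC_control and 40.8 ± 0.753 in mESC_OGTi (SD, n = 3). In RA-treated cells it was not called and its groups overlapped, at 23.2 ± 3.14 FPKM in RA_control and 26.4 ± 1.94 in RA_OGTi (log2 change 0.19, adjusted p = 0.167 in limma). Mgea5, which encodes the enzyme that removes O-GlcNAc, fell with the inhibitor in both states by 1.87 and 2.35 on the log2 scale. All 10 of the pluripotency markers looked at were above 1 FPKM in every group, although all 10 were called lower with RA (median log2 change -2.87). In bulk RNA, fewer cells that express a gene and less RNA per cell cannot be told apart.

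With RA and no inhibitor, all 8 genes tested rose, in a comparison where 33.7% of all tested genes rose. Ankrd1, Acta1 and Acta2 could be tested only because they were higher after RA, so their rises and ranks add no support. Actg2 and Tagln were not tested. All 8 rises were called and at least 2-fold on the fitted scale, which 7.63% of tested genes reached. The rises of Cyr61, Acta1 and Ctgf ranked 4, 5 and 7 of 14866 by log2 change, Amotl2 47, Myl9 69, Cnn1 273, Ankrd1 873 and Acta2 1046. RA_control lay wholly above mESC_control for 9 of the 10 genes, Actg2 being the exception, and the share of tested genes for which that was so was 34.8%.

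In RA-treated cells the inhibitor lowered 5 of the 8 genes tested and raised none, against 14.3% of tested genes lowered. These were Ctgf, Cyr61, Amotl2, Acta1 and Cnn1. Falls of at least 2-fold were called for Cyr61 and Acta1, and for 0.686% of tested genes. Among all tested genes the changes of Acta1, Cyr61, Ctgf, Cnn1 and Amotl2 ranked 55, 89, 224, 328 and 389 from the most negative. The RA_OGTi libraries all lay below the RA_control libraries for 6 of the 10 genes (these 5 and Tagln, which was not tested), and for 20.5% of tested genes. Ankrd1, Acta2 and Myl9 were not called.

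In undifferentiated cells limma called 0 of the 8 genes tested for the inhibitor, where 7.78% of tested genes were called in either direction. With only 8 genes, 0 is near that share and is no result about them. Ankrd1, Acta1 and Acta2 had 2 to 20 fragments per mESC library, where a fall could hardly be seen. Amotl2 was the 1 gene at an unadjusted p under 0.05, and limma-voom on recovered fragments called 0. The inhibitor's effect in RA-treated cells minus its effect in mESCs was called, and negative, for 5 of the 8 genes tested, the same 5 that fell, against 3.79% of tested genes. In inhibitor-treated cells RA still raised all 8 genes tested, where 32% of tested genes rose, with the same limit for Ankrd1, Acta1 and Acta2. The RA comparisons and the inhibitor comparisons share groups, so these counts are not independent of each other.

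**Figure D2:**
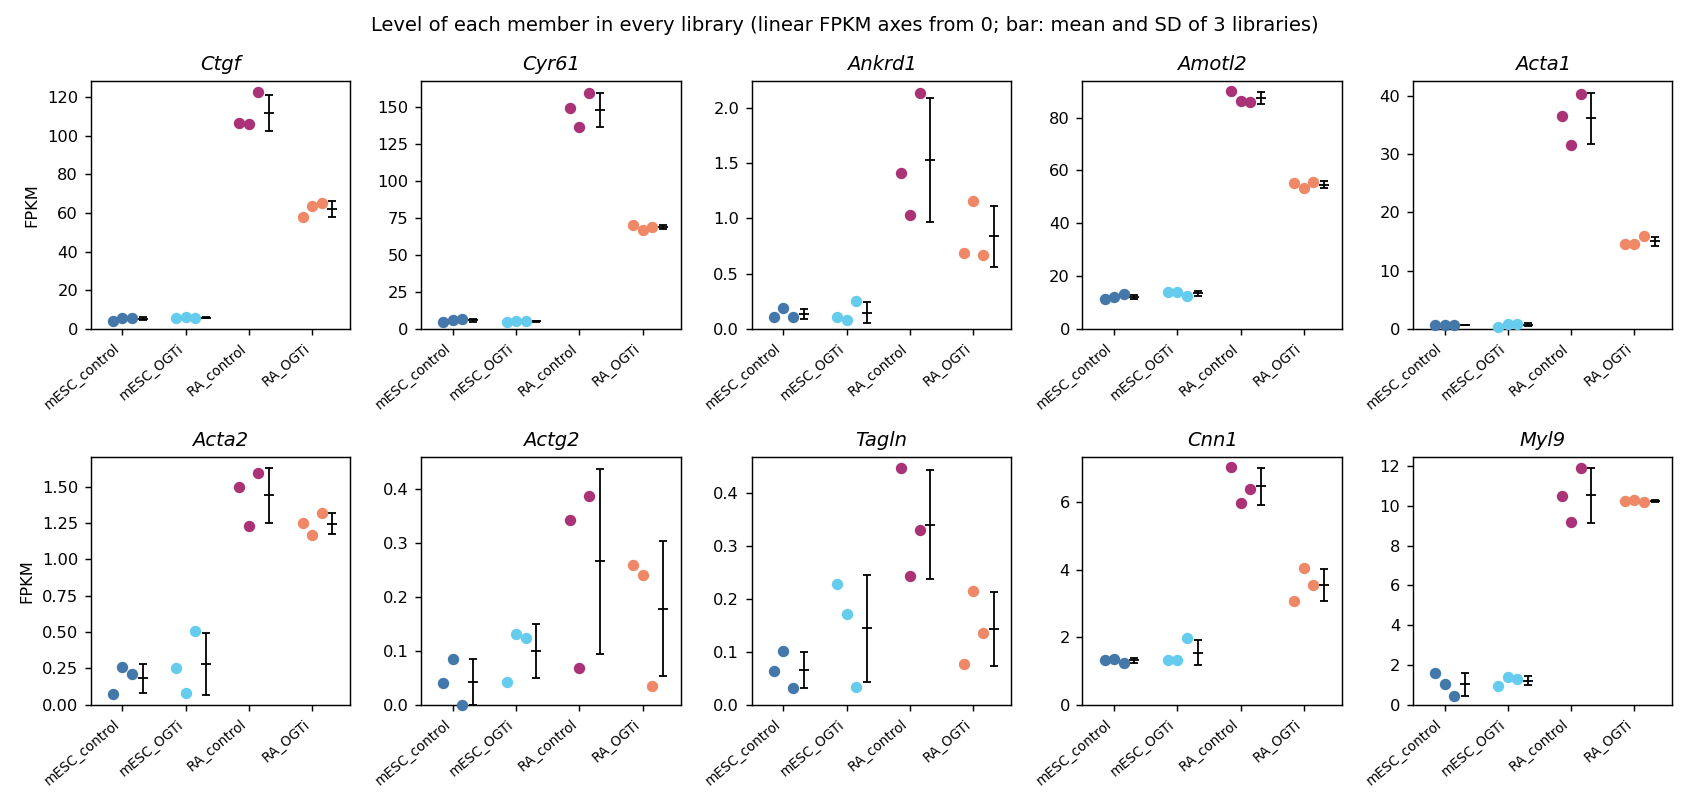
FPKM of each of the 10 genes in every library, on linear axes that start at 0, with the mean and SD of 3 libraries beside each group. For Ctgf, Cyr61, Amotl2, Acta1 and Cnn1 the 3 RA_OGTi libraries lie between the RA_control and mESC libraries, and for Acta2 and Myl9 the RA groups overlap.

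Among the YAP-side genes, Cyr61 and Ctgf encode secreted matricellular proteins of the CCN family that bind integrins. Cyr61 (ENSMUSG00000028195, chromosome 3) stood at 4.35, 5.89 and 6.83 FPKM in the mESC_control libraries and at 4.73, 5.20 and 5.59 in mESC_OGTi. It stood at 149, 136 and 159 FPKM in RA_control and at 70.3, 67.0 and 69.0 in RA_OGTi. The mESC groups overlapped, and every RA_OGTi library was below every RA_control library and far above every mESC library. The log2 change with RA was 4.49 (SE 0.11, adjusted p = 7.4e-11 in limma), a 26.0-fold ratio of group means. With the inhibitor in RA-treated cells it was -1.09 (SE 0.11, adjusted p = 6.998e-05), and its effect in RA-treated cells minus its effect in mESCs was -0.99 (SE 0.16, adjusted p = 0.00554). The gain from mESC_OGTi to RA_OGTi was 44.7% of the gain from mESC_control to RA_control, and 42.9% to 46.5% when each library in turn was left out.

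Ctgf (ENSMUSG00000019997, chromosome 10) followed the same order. Its levels were 4.27, 5.88 and 5.63 FPKM in mESC_control, 5.71, 6.08 and 5.74 in mESC_OGTi, 107, 106 and 122 in RA_control and 57.7, 63.4 and 65.4 in RA_OGTi. Again the mESC groups overlapped and the RA groups stood apart. RA without inhibitor gave a log2 change of 4.18 (SE 0.10, adjusted p = 3.874e-11), a 21.2-fold ratio of means. The inhibitor gave -0.83 in RA-treated cells (SE 0.10, adjusted p = 0.0001132), and the difference of its effects was -0.97 (SE 0.13, adjusted p = 0.00237). Its gain with RA in inhibitor-treated cells was 52.9% of that in control cells. An antisense transcript, Gm15270, shares 8.6% of the 50-base windows of the Ctgf transcript, and its own mean was at most 0.104 FPKM in any group.

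Amotl2 (ENSMUSG00000032531, chromosome 9) encodes an angiomotin that binds YAP and actin filaments, and is both a target and an inhibitor of YAP. It was the highest of the 10 genes in mESCs. The libraries read 11.4, 11.97 and 13.04 FPKM in mESC_control, 14.0, 14.0 and 12.4 in mESC_OGTi, 90.0, 86.5 and 85.8 in RA_control and 55.1, 53.2 and 55.5 in RA_OGTi. The RA groups were each tight and did not overlap, whereas the mESC groups did. The RA change was 2.75 in log2 (SE 0.06, adjusted p = 2.461e-11), or 7.20-fold in means. The inhibitor changed it by -0.67 in RA-treated cells (SE 0.06, adjusted p = 2.325e-05) and by 0.14 in mESCs (SE 0.06, unadjusted p = 0.0358 in limma, adjusted p = 0.176). The difference of these effects was -0.81 (SE 0.08, adjusted p = 0.0004362), and 54.6% of the RA gain was seen with the inhibitor.

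Ankrd1 (ENSMUSG00000024803, chromosome 19) encodes an ankyrin repeat protein of the muscle sarcomere and nucleus and is a widely used YAP reporter gene. It was scarce here. Its levels were 0.108, 0.188 and 0.107 FPKM in mESC_control, 0.110, 0.0773 and 0.254 in mESC_OGTi, 1.41, 1.03 and 2.14 in RA_control and 0.687, 1.15 and 0.666 in RA_OGTi. At 2 to 7 fragments per mESC library and 22 to 69 per RA-treated library, counting error is a large part of each value. Replicate 2 of RA_OGTi lay above replicate 2 of RA_control, so the RA groups overlapped. RA raised it by 1.13 in log2 (SE 0.16, adjusted p = 5.214e-05), 11.3-fold in means. The inhibitor's change in RA-treated cells was -0.45 (95% interval -0.80 to -0.10, adjusted p = 0.0512), which was not called. It was called when replicate 2 of RA_control was left out (adjusted p = 0.0182), or replicate 2 of RA_OGTi (0.0274), with no variance trend (0.0401) and with limma-voom (0.0395), and over all alternatives the adjusted p ran from 0.0182 to 0.180. The difference of the inhibitor's effects, -0.46, had an adjusted p of 0.239.

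On the SRF side, Acta1 encodes the actin of the skeletal muscle thin filament. Acta1 (ENSMUSG00000031972, chromosome 8) read 0.662, 0.692 and 0.738 FPKM in mESC_control and 0.378, 0.844 and 0.835 in mESC_OGTi. After RA it read 36.5, 31.6 and 40.4 FPKM in RA_control and 14.5, 14.7 and 15.9 in RA_OGTi. The mESC groups overlapped, and the RA groups did not. Its RA change was 4.45 in log2 (SE 0.11, adjusted p = 7.053e-11). The ratio of means, 51.9-fold, was the largest of the 10. In RA-treated cells the inhibitor gave -1.21 (SE 0.11, adjusted p = 3.298e-05), and 40.5% of the RA gain was seen with the inhibitor (38.1% to 43.0% leaving out each library). The difference of the inhibitor's effects was -1.18 (SE 0.16, adjusted p = 0.00201). That call rests on mESC levels of 9 to 20 fragments per library, and was lost with limma-voom (adjusted p = 0.14), the adjusted p over all alternatives running from 0.000466 to 0.14. Reads from Acta1 could in part fall on other actins, since 2.22% of the 50-base windows of its transcript occur in other genes, and 0% of its 100-base windows.

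Within the sum of 6 actin genes, Acta1 made up 0.109% of summed FPKM in mESC_control, 0.103% in mESC_OGTi, 3.69% ± 0.197 in RA_control and 1.78% ± 0.0691 in RA_OGTi (SD, n = 3). The rest was nearly all cytoplasmic actin. Actb, the beta form, stood at 440 ± 25.8 FPKM in RA_control and 443 ± 16.8 in RA_OGTi. Actg1, the gamma form, stood at 498 ± 38.2 and 382 ± 7.47 FPKM in these groups, a change of -0.38 (adjusted p = 0.00172 in limma). Actb and Actg1 had both risen with RA, by 0.38 and 0.72. Actc1, the cardiac form, was listed at 0 in all mESC_control libraries and had means of 2.30 FPKM in RA_control and 1.77 in RA_OGTi, a change of -0.24 with the inhibitor (adjusted p = 0.101).

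**Figure D3:**
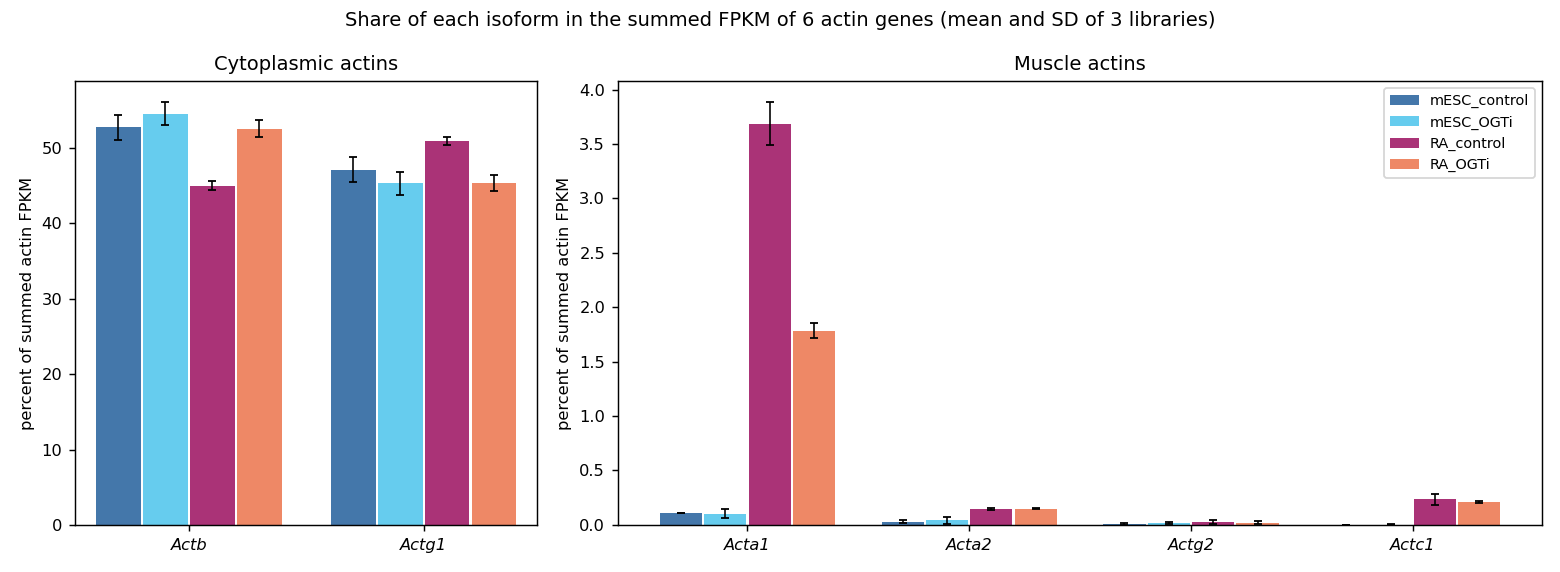
Share of each isoform in the summed FPKM of 6 actin genes, as the mean of 3 libraries with SD, on separate linear axes for cytoplasmic actins (left) and muscle actins (right). Acta1 goes from 0.109% in mESC_control to 3.69% in RA_control and 1.78% in RA_OGTi, and the Acta2 bars of the RA groups are level.

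Cnn1 (ENSMUSG00000001349, chromosome 9) encodes calponin 1, an actin-binding protein of smooth muscle. Its libraries read 1.32, 1.36 and 1.24 FPKM in mESC_control, 1.32, 1.32 and 1.97 in mESC_OGTi, 7.06, 5.97 and 6.41 in RA_control and 3.08, 4.05 and 3.54 in RA_OGTi. All RA-treated libraries were above all mESC libraries, and the RA groups did not overlap. The RA change was 1.69 in log2 (SE 0.11, adjusted p = 6.72e-08), 4.95-fold in means. The inhibitor gave -0.72 in RA-treated cells (SE 0.11, adjusted p = 0.000589), with a difference of effects of -0.84 (SE 0.15, adjusted p = 0.00876). Its RA gain with the inhibitor was 39.0% of the gain without.

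Myl9 and Acta2 rose with RA and kept most of the rise. Myl9 (ENSMUSG00000067818, chromosome 2) encodes the regulatory light chain of non-muscle and smooth muscle myosin. It stood at 1.59, 1.03 and 0.433 FPKM in mESC_control, 0.945, 1.41 and 1.27 in mESC_OGTi, 10.5, 9.17 and 11.9 in RA_control and 10.2, 10.3 and 10.2 in RA_OGTi. The 3 RA_OGTi libraries lay within the range of RA_control. The RA change was 2.55 in log2 (SE 0.17, adjusted p = 1.174e-07), 10.3-fold in means. The inhibitor's change in RA-treated cells was -0.03 (95% interval -0.41 to 0.35, adjusted p = 0.921), and was 0.014 when FPKM were rescaled to a constant sum per library (TPM scaling). The gain with the inhibitor was 95.1% of the gain without.

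Acta2 (ENSMUSG00000035783, chromosome 19), smooth muscle alpha-actin, was low throughout. It read 0.0714, 0.261 and 0.212 FPKM in mESC_control, 0.254, 0.0766 and 0.504 in mESC_OGTi, 1.497, 1.23 and 1.60 in RA_control and 1.25, 1.17 and 1.32 in RA_OGTi. The RA-treated libraries were all above the mESC libraries, on 39 to 52 fragments each, and the RA groups overlapped. RA raised it by 1.05 in log2 (SE 0.13, adjusted p = 1.57e-05), 7.94-fold in means, and the inhibitor's change in RA-treated cells was -0.12 (95% interval -0.40 to 0.16, adjusted p = 0.521). Its gain with the inhibitor was 76.9% of the gain without, and 68.9% to 85.8% leaving out each library. The differences of the inhibitor's effects were -0.22 for Acta2 (95% interval -0.62 to 0.17) and -0.19 for Myl9 (-0.73 to 0.34), and neither was called (adjusted p = 0.506 and 0.686).

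Tagln and Actg2 never reached 1 FPKM. Tagln (ENSMUSG00000032085, chromosome 9), which encodes the actin-bundling protein transgelin, read 0.0640, 0.100 and 0.0317 FPKM in mESC_control, 0.227, 0.172 and 0.0322 in mESC_OGTi, 0.447, 0.242 and 0.330 in RA_control and 0.0762, 0.215 and 0.134 in RA_OGTi. That is 1 to 15 fragments per library. The RA_OGTi libraries lay below the RA_control libraries and overlapped the mESC libraries. With no filter on low genes, limma gave an adjusted p of 0.00545 for RA and 0.0768 for the inhibitor in RA-treated cells. Pcsk7 and Gm48529, on the opposite strand, together share sequence with Tagln over 48.3% of 50-base windows. Pcsk7 was itself at 2.58 to 4.11 FPKM in group means, so without a stated strand setting the reads of these genes cannot be told apart. Actg2 (ENSMUSG00000059430, chromosome 6), enteric smooth muscle actin, had 0 to 11 fragments per library. Its means were 0.0421, 0.0988, 0.266 and 0.178 FPKM in the order mESC_control, mESC_OGTi, RA_control, RA_OGTi, and its groups overlapped in every comparison.

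The order of levels changed with RA. In mESC_control the highest was Amotl2, followed by Cyr61 and Ctgf, whose libraries overlapped, then Cnn1, Myl9 and Acta1, which overlapped with their neighbours, then Acta2 and Ankrd1, and last Tagln and Actg2. In RA_control it ran Cyr61, Ctgf, Amotl2, Acta1, Myl9 and Cnn1, each with all libraries above those of the next, then Ankrd1 and Acta2, which overlapped, and last Tagln and Actg2. RA_OGTi kept the order of the first 6 genes, again with no overlap between neighbours. Below them Acta2 lay above Ankrd1.

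**Figure D4:**
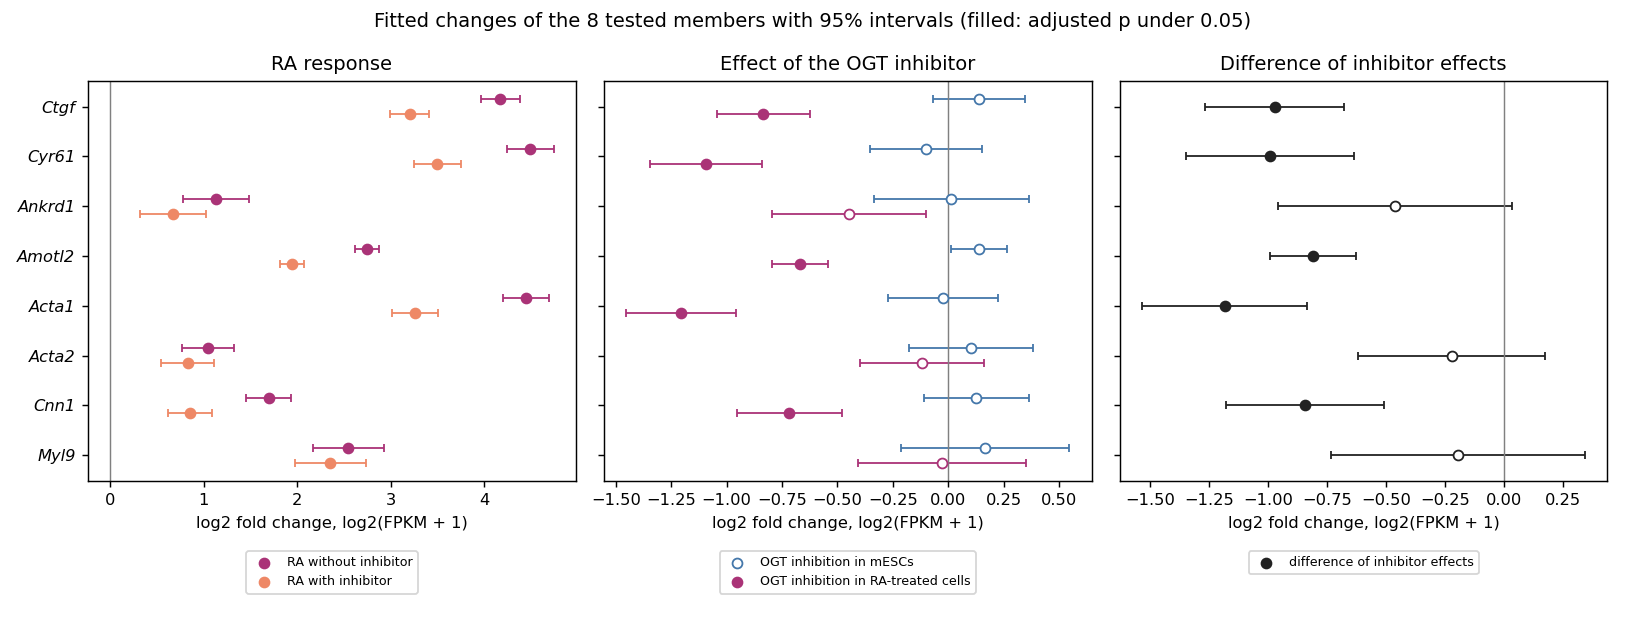
Fitted log2 changes of the 8 tested genes with 95% intervals on the log2(FPKM + 1) scale, for RA with and without inhibitor (left), the inhibitor in mESCs and in RA-treated cells (middle) and the latter minus the former (right). Filled points have an adjusted p under 0.05; in the middle panel they are 5 genes in RA-treated cells, from -0.67 for Amotl2 to -1.21 for Acta1, and none in mESCs.

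The genes whose profile over the 12 libraries was nearest to each tested gene were picked by the root mean square difference of centred log2(FPKM + 1). Candidates were protein-coding genes with a mean of at least 5 FPKM. For Cyr61 the nearest were Acta1 (0.15) and Ctgf (0.22). For Ctgf they were Acta1 (0.21) and Pmp22 (0.21), a myelin and epithelial membrane protein at 1.25, 1.51, 36.0 and 25.5 FPKM in the 4 groups. Amotl2 was nearest to Rec8 (0.14), a meiotic cohesin subunit, and Arl4c (0.15), a small GTPase. Cnn1 was nearest to Serinc2 (0.14) and Sgcb (0.16), and Myl9 to H2-Q7 (0.19) and Sox3 (0.21). The scarce Ankrd1 was nearest to Gm2a (0.13) and P4ha1 (0.15), but only on this scale, which understates changes of low genes. From mESC_control to RA_control, Ankrd1 went from 0.134 to 1.53 FPKM, Gm2a from 20.9 to 51.4 and P4ha1 from 37.2 to 79.0. The 12 libraries share 4 conditions, so this is a description of profiles.

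Other genes of the 2 pathways went both ways with RA, in a comparison where 33.7% of all tested genes rose and 37.2% fell. Of 27 Hippo pathway components, 24 were tested, 13 rose and 7 fell (16 and 3 with TPM scaling), with a median log2 change of 0.30 against -0.03 over all tested genes. Yap1 itself stood at 17.6 ± 0.805 FPKM in mESC_control and 13.1 ± 0.826 in RA_control (-0.40, adjusted p = 3.731e-05, lost on the TPM scale at 0.0576, the highest over its alternatives), while Wwtr1, which encodes TAZ, went from 12.2 ± 1.02 to 20.7 ± 1.53 (0.71). Tead4 fell by 1.40 and Nf2, the upstream tumour suppressor merlin, fell by 1.10. Ajuba, a LIM protein that restrains LATS kinases, rose by 1.06 and the protocadherin Dchs1 by 1.03. Tead3 rose by 0.84, Tead1 had a change of 0.18 (adjusted p = 0.0935), and Tead2, the most abundant TEAD gene at 41.1 FPKM in mESC_control, had one of 0.09 (adjusted p = 0.280). Of 18 other YAP targets 14 were tested, 9 rose and 3 fell (median 0.38). Igfbp3 rose by 1.64, Crim1 by 1.32 and F3, tissue factor, by 0.94, and Dock5 fell by 1.07.

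Among 24 other SRF and MRTF targets, 23 were tested, 19 rose with RA and none fell, with a median of 0.72, beside the same 33.7% and 37.2% of all tested genes. Tgfb1i1 (Hic-5, a focal adhesion protein) rose by 1.90, Actc1 by 1.71, Tpm2 (beta-tropomyosin) by 1.5 and Csrp1 by 1.5. Srf rose from 17.2 ± 0.780 to 27.0 ± 1.36 FPKM (0.62), Mkl1 rose by 0.32, Elk3 fell by 0.64, and Mkl2 had a change of 0.06 (adjusted p = 0.572). In inhibitor-treated cells RA called 18 other SRF and MRTF targets higher and 1 lower, 11 and 3 other YAP targets and 13 and 6 Hippo components (15 and 3 with TPM scaling). Over all tested genes, RA called 32% higher and 36.7% lower in these cells.

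With the inhibitor in RA-treated cells these lists went both ways, and over all tested genes 17.6% rose and 14.3% fell. Of the 14 other YAP targets tested, 7 rose and 3 fell, with a median of 0.25 against 0.002 over all tested genes, the opposite sign to Cyr61, Ctgf and Amotl2. Igfbp3 went from 16.1 ± 0.410 to 25.7 ± 1.31 FPKM (0.64) and Myof from 2.31 ± 0.110 to 3.51 ± 0.325 (0.45). Nt5e, the ecto-nucleotidase CD73, fell from 2.19 ± 0.130 to 0.876 ± 0.0903 (-0.76), and Nuak2, a kinase that promotes actomyosin contraction, fell by 0.50. Hippo components numbered 9 higher and 5 lower of 24 (9 and 2 with TPM scaling; median 0.007). Yap1 rose by 0.24 and Tead4 by 0.31, and Wwtr1 had a change of -0.16 (adjusted p = 0.104). Tead3 had a change of -0.35 (adjusted p = 0.0166, up to 0.0531 over its alternatives).

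Of the 23 other SRF and MRTF targets, 3 rose and 8 fell with the inhibitor in RA-treated cells (4 and 6 with TPM scaling; median -0.12), beside 17.6% and 14.3% of all tested genes. Cnn2, the non-muscle relative of Cnn1, fell from 36.3 ± 2.77 to 18.9 ± 0.391 FPKM (-0.90, adjusted p = 3.039e-05). Tuft1 fell by 0.69 and Vcl, the focal adhesion protein vinculin, by 0.43, while Tgfb1i1 had a change of 0.41 (adjusted p = 0.00919, up to 0.0535 over its alternatives). Srf fell from 27.0 to 20.5 ± 1.84 FPKM (-0.38, adjusted p = 0.00142) and Mkl1 rose by 0.21.

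**Figure D5:**
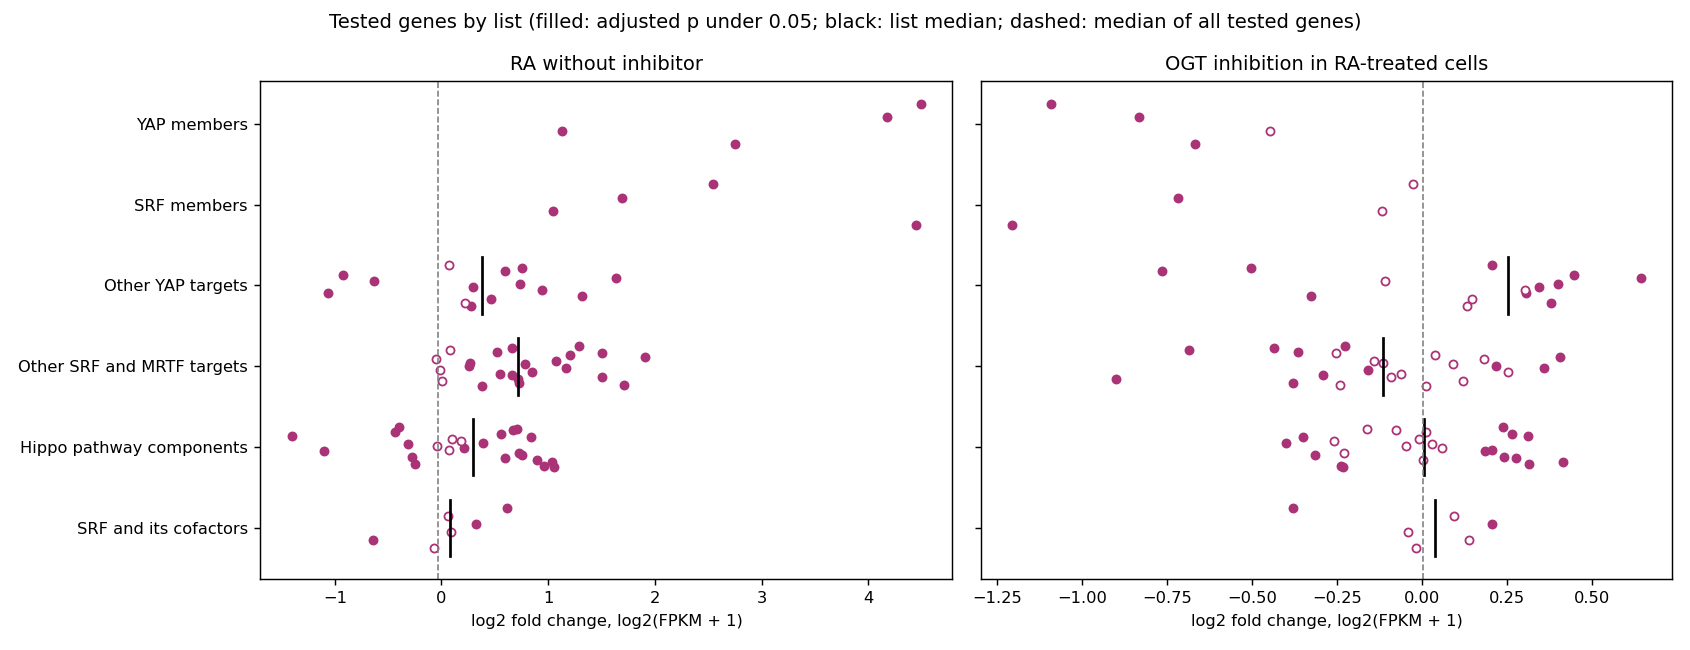
Log2 change of every tested gene of each list with RA (left) and with the inhibitor in RA-treated cells (right), filled where the adjusted p was under 0.05. Black bars are medians of the 4 lists of other genes and the dashed line is the median of all tested genes; other SRF and MRTF targets lie mostly to the right with RA (19 called higher, 0 lower), and other YAP targets have a median of 0.25 with the inhibitor.

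In mESCs the inhibitor called 4.6% of all tested genes higher and 3.18% lower. In these lists, Tuft1 fell by 0.47 and Vcl by 0.26, and Myh9, the heavy chain of non-muscle myosin IIA, rose by 0.25. Mkl1 rose by 0.27 (adjusted p = 0.0128 in limma, up to 0.0522 over its alternatives). Other SRF and MRTF targets numbered 1 higher and 2 lower of 23, Hippo components 2 and 1 of 24, and other YAP targets 0 and 2 of 14. These counts are not firm. The Hippo count of 3 dropped to 0 or 1 without each mESC library other than mESC_OGTi replicate 1, and the YAP target count of 2 to 0 or 1 without each other than mESC_control replicate 3. Tuft1, Vcl and Myh9 kept their calls in all 21 alternatives, and Mkl1 kept its call in 20 of them.

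Markers of muscle and of other cell types were read beside these results. Smooth muscle markers summed to 25.3 to 27.9 FPKM in mESC_control, 26.0 to 27.7 in mESC_OGTi, 32.5 to 35.1 in RA_control and 32.7 to 34.7 in RA_OGTi over 8 genes, with Pln at or near 0 throughout. Skeletal muscle markers other than Acta1 (7 genes) summed to 1.91 to 2.64, 1.77 to 2.25, 1.40 to 2.20 and 1.88 to 2.14 FPKM in the same order, with Myf5, Myl1, and Ckm under 0.1 FPKM in every group. This sum hides members that moved in opposite directions. Myh3 had means of 1.90, 1.53, 0.921 and 0.613 FPKM in that order. Myod1 had means of 0.104, 0.140, 0.553 and 0.680 and Tnnt3 of 0.245, 0.0950, 0.270 and 0.530, both too low to be tested. For both muscle lists the ranges of RA_control and RA_OGTi overlapped. The smooth muscle sum also hides members that moved in opposite directions. With RA, 3 of its 5 tested genes were called higher and 1 lower, beside 33.7% and 37.2% of all tested genes. With the inhibitor in RA-treated cells 1 was called higher and 1 lower, beside 17.6% and 14.3%. Lmod1 had means of 2.43 FPKM in RA_control and 3.38 in RA_OGTi, and Des of 17.1 and 13.8. Fibroblast or feeder markers (9 genes) summed to 15.96 to 17.2, 15.0 to 17.1, 22.8 to 25.9 and 24.3 to 25.2, and Dcn was at 0 in every library. Of the 5 tested, RA without inhibitor called 4 higher and 1 lower, beside 33.7% and 37.2% of all tested genes. From mESC_control to RA_control the mean of Col1a1 went from 1.02 to 4.60 FPKM, Pdgfrb from 4.82 to 9.76 and Thy1 from 9.96 to 7.61. Cardiac markers (8 genes) summed to 15.4 to 19.5, 14.1 to 21.2, 21.6 to 26.4 and 37.7 to 45.5 FPKM. Of the 5 cardiac markers tested, Myl7 and Nkx2-5 were called higher in RA_OGTi than in RA_control, and Tnnt2 was under 0.1 FPKM in every group. Endothelial markers (7 genes, Emcn at 0) summed to 26.4 to 29.6, 32.3 to 36.3, 13.7 to 15.1 and 17.3 to 17.7, and parietal and visceral endoderm markers (10 genes, Afp and Ttr under 0.1) to 142.9 to 145.4, 154.5 to 164.7, 158.8 to 166.0 and 186.0 to 198.8. The endothelial sum was mostly Pecam1, with means of 22.0, 28.6, 8.32 and 10.8 FPKM, while Kdr went from 0.114 in mESC_control to 0.923 in RA_control. The endoderm sum was mostly Sparc, with means of 88.5, 86.6, 92.8 and 108.9 FPKM. RA response markers (8 genes) summed to 47.6 to 52.8, 51.9 to 58.9, 821 to 873 and 1078 to 1132, and pluripotency markers (10 genes) to 6048 to 6119, 5789 to 6190, 2577 to 3189 and 2091 to 2330. These last 4 lists differed between RA_control and RA_OGTi without overlap of the sums, as did the cardiac list, and pluripotency markers were the ones that were lower. The RA response sum was mostly Stra8, at 546 ± 14.2 FPKM in RA_control and 719 ± 14.2 in RA_OGTi, and 5 of these 8 genes were called higher and 1 lower, Hoxb1, at 58.8 ± 6.18 and 36.1 ± 2.45. With RA and no inhibitor all 10 pluripotency genes were called lower, beside 37.2% of all tested genes, with a median log2 change of -2.87. Dppa5a went from 3435 to 2436 FPKM and Nanog from 289 to 37.1. The pluripotency sum was mostly Dppa5a, at 2436 ± 289 FPKM in RA_control and 1850 ± 116 in RA_OGTi. Between these 2 groups 7 of the 10 genes were called lower and 1 higher, Esrrb, at 8.27 ± 0.208 and 12.04 ± 1.03. The part of these shifts in the lower levels of the 5 genes was not tested.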

How the data were processed

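RNA sequencing libraries of R1 mESCs were analysed, 3 in each of 4 groups taken from the labels. Libraries were made from TRIzol-extracted total RNA with an NEBNext Ultra kit, per the labels' protocols. HISAT2 2.0.5, featureCounts 1.5.0 and GRCm38 are named in the submitters' processing notes. The sources used here do not give the filters, the strand setting or the FPKM formula. The authors deposited FPKM per gene, with gene lengths and coordinates, for 54555 genes. Values above 0 were multiplied by gene length and divided by a step fitted to each library's own values. By this, 100% came out as whole fragments within a tolerance of 0.02. The deposited FPKM carry a scaling beyond depth, at 1.06 to 1.11 fragments per fragment implied in mESC libraries and 0.883 to 0.934 in RA-treated ones. Further median-of-ratios scaling hardly changed the calls, at 5008 higher and 5527 lower for RA without inhibitor, beside 5007 and 5527. Limma-voom used the implied totals as library sizes, so it carries the same scaling.

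Values were put on the scale log2(FPKM + 1), a pseudocount of 1, and fitted with limma 3.58.1 (R 4.3.3) over all 12 libraries at once, with an intensity trend. They were two-sided, over the 14866 genes that reached 1 FPKM in 3 or more libraries, with Benjamini-Hochberg adjustment within each of 5 comparisons and a threshold of 0.05. The fit was repeated with a pseudocount of 0.1, without a filter, at a mean of at least 5 FPKM, with median-of-ratios and TPM scaling, with no variance trend, on only the groups compared, blocked by replicate number, with limma-voom on the recovered fragments, and without each library. The fit was tested on simulated data. The genes reported and the lists (Hippo components, other YAP targets, SRF and cofactors, other SRF and MRTF targets, family relatives and 8 marker lists) were chosen with earlier results of these data known, and some genes stand in more than 1 list. All 10 genes are reported. Genes were picked for naming as up to 4 called genes per pathway list and comparison with the largest absolute change. Yap1, Wwtr1, the Tead genes, Srf, Mkl1, Mkl2, Actb, Actg1, Actc1, Ogt and Mgea5 were picked whatever their test. Not every pick is given in every comparison. Some genes and 1 list are not reported here. A few marker genes are named, chosen after their values were seen: those near 0, those that make up most of a list's sum, some that were called and some whose moves a sum hides. Shared sequence was counted in GENCODE M21 transcripts and promoters came from RefSeq. Tables and plots used Python 3.11.15, pandas 2.3.3, numpy 2.4.6 and matplotlib 3.10.9.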

Additional observations from a re-analysis of the deposited data

Results flagged for a closer look

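The inhibitor's effect differed between the RA-treated and the mESC groups, by the interaction term of the limma fit, for 5 of the 8 genes tested. These groups may also differ in the time since the inhibitor was added, which cannot be told apart from RA here. In log2 the effect in RA-treated cells minus the effect in mESCs was -0.97 for Ctgf, -0.99 for Cyr61, -0.81 for Amotl2, -1.18 for Acta1 and -0.84 for Cnn1. For Acta1 the call was lost with limma-voom (adjusted p = 0.14, against 0.000466 to 0.14 over all its alternatives), and the other 4 were called in every alternative run.

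Among genes of the other lists the same term was called and negative for Cnn2 (-0.94) and positive for Myof (0.46). Both calls held in every alternative run. Calls that were lost in some alternatives were those of Tead1 (-0.50), Ajuba (-0.35), Wwc2 (-0.21), Crim1 (-0.39), Actg1 (-0.39) and Fhl2 (0.60). The enzymes of O-GlcNAc cycling were flagged by the same term, Ogt at -0.95 and Mgea5 at -0.48, the latter lost in 4 of 20 alternatives.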

How the results depend on the processing

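The counts of the 10 genes called held within 1.5 times in 102 of 104 recomputations. The exceptions were the stricter filter, which left 5 of the genes to test, with 5 called for RA without inhibitor and 5 for RA with inhibitor. Leaving out 1 library gave 0 genes called for the inhibitor in mESCs, 8 for each RA comparison, 5 to 6 for the inhibitor in RA-treated cells and 5 for the difference of effects. Of 817 recomputed single values of the 10 genes, 802 kept direction and side of the threshold, 1 lost its call (Acta1, above), 4 gained one (Ankrd1, above) and 10 changed sign, all of values that were not called. Leaving out 1 library, the inhibitor's change in mESCs ran from -0.25 to 0.023 for Cyr61, -0.052 to 0.057 for Ankrd1, -0.094 to 0.12 for Acta1, -0.021 to 0.22 for Acta2 and -0.059 to 0.37 for Myl9. For Myl9 the change in RA-treated cells ran from -0.12 to 0.056, and the difference of effects from -0.39 to 0.031. With TPM scaling the Myl9 change in RA-treated cells was 0.014, and the change of Elk1 in RA with inhibitor was 0.083 in place of -0.17. The cause was not tested. Of 1846 recomputed values of other named genes, 1721 kept their call, 124 lost it and 1 changed sign.

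Under TPM scaling the all-gene median was 0.18 in place of -0.03 for RA without inhibitor and 0.20 in place of -0.04 for RA with inhibitor. The share of calls that were higher went from 47.5% to 63.6%, from 46.6% to 66.2%, for the inhibitor in RA-treated cells from 55.3% to 66.8% and for the difference of effects from 50.7% to 61.4%. With the stricter filter it was 35.7% and 34.2% for the RA comparisons. The calls of the 10 genes were the same in number on the TPM scale. On that scale the RA changes of low genes were larger, at 2.01 for Ankrd1, 1.87 for Acta2, 5.30 for Acta1 and 3.26 for Myl9.

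With the replicate number as a block, 0, 8, 5, 8 and 5 of the genes were called in the 5 comparisons, as without it. Same-numbered libraries showed correlations of their deviations from -0.021 to 0.12 over 18 pairs, 3 of them over 0.1, and 6 of 12 libraries correlated best with their own number, so the numbers were not taken as pairs. Depth limits Ankrd1, Acta2, Actg2 and Tagln in all groups and Acta1 and Myl9 in mESCs, where a library held few fragments of each.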

Other observations

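Close relatives of the 10 genes did not all follow them. Of 17 relatives, 12 were tested, and with RA 8 rose and 3 fell (9 and 1 with TPM scaling), beside 33.7% and 37.2% of all tested genes. Nov, which encodes a CCN protein like Cyr61 and Ctgf, rose by 1.40 and had means of 2.53 FPKM in RA_control and 2.19 in RA_OGTi (adjusted p = 0.348 for the inhibitor in limma). Amot, the relative of Amotl2, rose by 0.96. Of the transgelins, Tagln2 was abundant where Tagln was nearly absent, at 261 ± 14.5 FPKM in mESC_control, 207 ± 19.6 in RA_control and 162 ± 12.04 in RA_OGTi. With the inhibitor in RA-treated cells 2 relatives rose and 5 fell (3 and 4 with TPM scaling), beside 17.6% and 14.3% of all tested genes, among them Cnn2 (-0.90), Actg1 (-0.38) and Tagln2 (-0.35), while Amotl1 rose by 0.31.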
